A study of Mus musculus with 6 samples.

Results

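Immature post-mitotic neutrophils of mouse bone marrow were taken here as the cells that carried many specific-granule transcripts but few transcripts of the earlier azurophil granules and of mitosis. Of 28055 deposited cells in 6 single-cell libraries, 26893 had at least 500 UMIs (unique molecular identifiers, each standing for one captured RNA molecule) and at most 10% mitochondrial UMIs, and 19522 of these came from marrow. Levels were expressed as CP10k, the UMIs of a gene per 10000 UMIs. A marrow cell was a member when Camp, Ngp and Ltf together reached 100 CP10k, Elane, Prtn3 and Mpo together stayed below 20 CP10k, and the mitotic genes Mki67, Top2a, Cenpf, Ube2c and Nusap1 together stayed below 3 CP10k. Members were thus chosen by the measured levels of these 11 genes, whose values are given below as a description without a test. This left 2214 member cells.

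The study compared young and aged wild-type mice with and without an experimental stroke. Members came from 4 marrow libraries, 1 per group: aged mice whose middle cerebral artery had been occluded 24 h earlier (426 members), young mice treated alike (277), untreated aged mice at steady state (691) and untreated young mice at steady state (820). They are called the aged stroke, young stroke, aged steady-state and young steady-state libraries. All 4 were made from marrow enriched by sorting for Gr1+ and for c-kit+ cells, so the sort helps to set the shares of cells, and the labels give neither the ages in months nor the number of mice pooled. The 2 blood libraries, from sorted CD11b+ cells of untreated aged and young mice, lay outside the rule and serve for comparison. With 1 library per group there are no replicates, and the p-values below do not measure variation between animals. They rest on how far effects varied between ages or contexts, with 1 residual degree of freedom per gene. This variation was pooled over genes, with 13.8 prior degrees of freedom, so a gene whose own effect varied can still pass.

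Neutrophils are made in the marrow in ordered steps. Dividing precursors first fill azurophil granules with myeloperoxidase and serine proteases, then specific granules with lactoferrin, cathelicidin and neutrophilic granule protein, and cells that have left the cell cycle go on to make gelatinase granules and the receptors used to leave for the blood. The transcripts of each granule class are switched on and off in that order, so a cell's granule transcripts show how far it has come.

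Camp encodes the cathelicidin antimicrobial peptide, Ngp neutrophilic granule protein and Ltf lactoferrin, the iron-binding protein of specific granules. All 3 genes lie on chromosome 9 (GRCm38), Camp at 109847379 to 109849617 on the minus strand, Ngp at 110419747 to 110423012 and Ltf at 111019271 to 111042767 on the plus strand. Their promoter windows are shown because the sum of these transcripts defines the members and orders them below. Each window runs from 250 bases before to 50 bases after the RefSeq start (GRCm38.p6), 5′ to 3′ on the gene's strand. The gene positions above come from another annotation, GENCODE. In all 3 genes the RefSeq start lies inside the GENCODE span, so some bases before the RefSeq start also fall inside it. Capitals mark matches on either strand to TTNNGCAA, a motif of the C/EBP family to which Cebpe, the specific-granule transcription factor, belongs.
Camp, chr9:109849407-109849706, minus strand: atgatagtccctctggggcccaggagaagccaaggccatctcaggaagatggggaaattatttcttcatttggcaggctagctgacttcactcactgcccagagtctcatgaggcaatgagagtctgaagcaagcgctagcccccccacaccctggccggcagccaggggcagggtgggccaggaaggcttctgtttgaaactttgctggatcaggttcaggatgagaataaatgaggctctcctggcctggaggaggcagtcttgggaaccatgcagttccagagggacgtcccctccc
Ngp, chr9:110419558-110419857, plus strand: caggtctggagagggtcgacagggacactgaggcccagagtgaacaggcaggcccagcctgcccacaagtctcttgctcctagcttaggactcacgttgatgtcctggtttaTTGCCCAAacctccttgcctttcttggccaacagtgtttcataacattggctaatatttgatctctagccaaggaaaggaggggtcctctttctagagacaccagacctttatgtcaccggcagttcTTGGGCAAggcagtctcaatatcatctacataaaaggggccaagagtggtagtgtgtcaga
Ltf, chr9:111019042-111019341, plus strand: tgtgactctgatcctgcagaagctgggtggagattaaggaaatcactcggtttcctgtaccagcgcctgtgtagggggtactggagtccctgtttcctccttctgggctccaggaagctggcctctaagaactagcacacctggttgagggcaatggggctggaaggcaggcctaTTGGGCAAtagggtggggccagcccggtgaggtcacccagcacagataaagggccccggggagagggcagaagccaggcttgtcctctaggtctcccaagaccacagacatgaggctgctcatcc
Ngp held 2 matches, TTGCCCAA from 138 to 131 bases and TTGGGCAA from 11 to 4 bases before the RefSeq start. The match nearer the start lies inside the GENCODE span of Ngp. Ltf held 1 match, TTGGGCAA, from 75 to 68 bases before the start. The Camp window held none, which says only that these letters are not in this window. Of 32851 mouse promoter windows of 300 bases, 3547 (10.8%) held the motif; no other motif was searched.

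Members made up 16% of the kept cells in the aged stroke library (exact binomial 95% interval 14.7 to 17.5%), 12.2% in the young stroke library (10.9 to 13.7%), 10.8% in the aged steady-state library (10.1 to 11.6%) and 9.98% in the young steady-state library (9.34 to 10.7%). Among the cells over the granule floor, members were 62.8% in the aged stroke, 67.9% in the young stroke, 48.6% in the aged steady-state and 41.9% in the young steady-state library. The intervals cover counting error only. The libraries differed in depth: the median member had 12300 UMIs in the aged stroke and 12659 in the young stroke library, against 6449 in the aged steady-state and 5267.5 in the young steady-state library. Among cells with at least 2000 UMIs (2172 and 1598 in the aged and young stroke libraries, 6386 and 8208 in the aged and young steady-state libraries) the shares were 17.9%, 14.0%, 10.8% and 9.99% in that order. With the same cells thinned to 2000 UMIs they were 17.5%, 13.8%, 10.4% and 9.87%.

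The markers of the label were present. Ly6g, the surface antigen read by neutrophil antibodies, was found in 79.8%, 81.6%, 96.7% and 92.3% of members (aged stroke, young stroke, aged steady-state and young steady-state library), and Mmp8, neutrophil collagenase, in 71.8%, 72.9%, 64.7% and 61.1%. The 5 markers, 3 of which the rule used, summed to between 773 and 991 CP10k. Cells with B-cell markers, which should lack these transcripts, numbered 26 and 60 in the aged and young stroke libraries and 9 and 2 in the aged and young steady-state libraries. Their highest granule sum was 33.8 CP10k and their medians lay between 0 and 7.29 CP10k. At steady state these B cells were few. Cells low in S100a8 and S100a9 numbered 1855 and 1667 in the aged and young stroke libraries and 4827 and 6129 in the steady-state ones. Their median granule sum was 1.09 and 0.758 CP10k in the aged and young stroke libraries, against 4.67 and 5.11 CP10k at steady state. How much of this sum was free RNA was not tested. Members within 20 CP10k above the floor numbered 7, 16, 3 and 7 in the 4 libraries in the same order, and cells within 20 CP10k below it numbered 12, 2, 4 and 11. Both sides of the floor held Retnlg, which the rule did not use: it stood at 434 CP10k inside and 345 outside in the aged stroke library, 374 and 499 in the young stroke library, 231 and 156 in the aged steady-state library and 222 and 200.4 in the young steady-state library.

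Transcripts of other lineages were low but present. The 8 B-lineage markers summed to 0.408 and 0.524 CP10k in the aged and young stroke libraries and to 0.607 and 0.936 CP10k in the aged and young steady-state libraries. The 6 basophil and mast-cell markers summed to 0.187 and 0.0441 CP10k in the aged and young stroke libraries and to 2.51 and 1.83 CP10k in the aged and young steady-state libraries, and the 6 megakaryocyte markers to 0.0209 and 0.0276, against 0.538 and 0.511 CP10k. Members with at least 2 UMIs of such markers were 12.7% and 12.6% in the aged and young stroke libraries and 19.2% and 16.7% in the aged and young steady-state libraries. They were kept, as the rule removes no doublets. Of 104 cell barcodes that occurred in more than 1 of the 6 libraries, 15 belonged to a member, and no barcode was a member in more than 1 library.

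A few secreted proteins dominated the RNA of these cells. S100a9 and S100a8, the subunits of calprotectin, were the most abundant transcripts. S100a9 stood at 2023 and 2076 CP10k in the aged and young stroke libraries and at 1929.9 and 1919 CP10k in the aged and young steady-state libraries. S100a8 stood at 2021 and 1989 CP10k in the aged and young stroke libraries and at 1491 and 1472 CP10k in the aged and young steady-state libraries. In the median member the pair summed to 4200.2 and 3972 CP10k in the aged and young stroke libraries and to 3715 and 3723 CP10k in the aged and young steady-state libraries.

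Specific-granule transcripts followed. Camp stood at 382, 357, 468 and 459 CP10k, Ngp at 296, 316, 382 and 364 CP10k and Ltf at 79.1, 87.6, 114 and 112 CP10k (aged stroke, young stroke, aged steady-state, young steady-state). Lcn2, the siderophore-binding lipocalin of the same granules, stood at 194, 197, 173 and 158 CP10k. Azurophil transcripts were nearly gone: Mpo stood at 0.209, 0.138, 1.19 and 1.33 CP10k and Ctsg, cathepsin G, which the rule did not use, at 0.253, 0.127, 0.597 and 0.828 CP10k. Of the gelatinase-granule genes, Mmp9, gelatinase B itself, stood at 16, 16.3, 13.8 and 12.5 CP10k and Retnlg, a secreted resistin-like protein, at 102, 98.9, 55.5 and 55.4 CP10k. The receptor Cxcr2, which draws neutrophils into the blood, stood at 3.55, 2.76, 2.18 and 2.07 CP10k, and the G-CSF receptor Csf3r at 1.21, 1.35, 1.65 and 1.35 CP10k. Cybb, the catalytic subunit of the NADPH oxidase, stood at 13, 14.2, 23.9 and 23.8 CP10k.

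Set against neighbouring stages, members held more of the late-granule transcripts than their dividing counterparts. The dividing cells were marrow cells that met the granule and azurophil limits but not the mitotic one. Because the rule chose the members, these ratios are descriptions without a test, given as the median log2 ratio over the 4 libraries. Mmp8 was higher in members by 2.5, with a mean of 16.4 CP10k in members against 2.61 in dividing cells, and Mmp9 by 2.26, with 14.6 against 2.85 CP10k. Retnlg was higher by 2.10, with 78.0 against 18.2 CP10k, and Fpr1, a receptor for formylated bacterial peptides, by 1.72. Transcripts of the cell cycle that the rule did not name went the other way: the linker histone Hist1h1b stood at 0.123 CP10k in members and 8.98 in dividing cells, and Birc5, a mitotic regulator, at 0.127 CP10k in members and 3.33 in dividing cells. Fcnb, ficolin-B, was lower in members by 1.65 and Cebpe by 0.75, while Ltf was higher by 0.50 and Camp lower by 0.37.

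Granule-poor marrow cells were also compared. By definition they fall below the granule floor. They had at least 1000 CP10k of S100a8 and S100a9, and their leading genes included the monocyte transcripts Ccr2 and F13a1, so they are not neutrophils alone. The median log2 ratios of 6.23 for Camp and 5.72 for Ltf, members over these cells, were thus fixed by the selection. Of genes outside the rule, Fcnb was higher in members by 3.26, Lta4h, the leukotriene A4 hydrolase, by 2.81 and Cebpe by 2.73. In the other direction Retnlg stood at 360 and 337 CP10k in the granule-poor cells of the aged and young stroke libraries and at 232 and 224 CP10k in those of the aged and young steady-state libraries, above the members throughout. In S100a8- and S100a9-rich blood cells, also granule-poor by definition, Camp stood at 0.0112 CP10k in aged and at 0 in young blood, Cxcr2 at 17.3 and 18.6 CP10k, Csf3r at 36.0 and 43.7 CP10k and Il1b, the precursor of interleukin-1 beta, at 41.5 and 44.8 CP10k. Il1b in members was between 0.0938 and 0.359 CP10k.

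**Figure D1:**
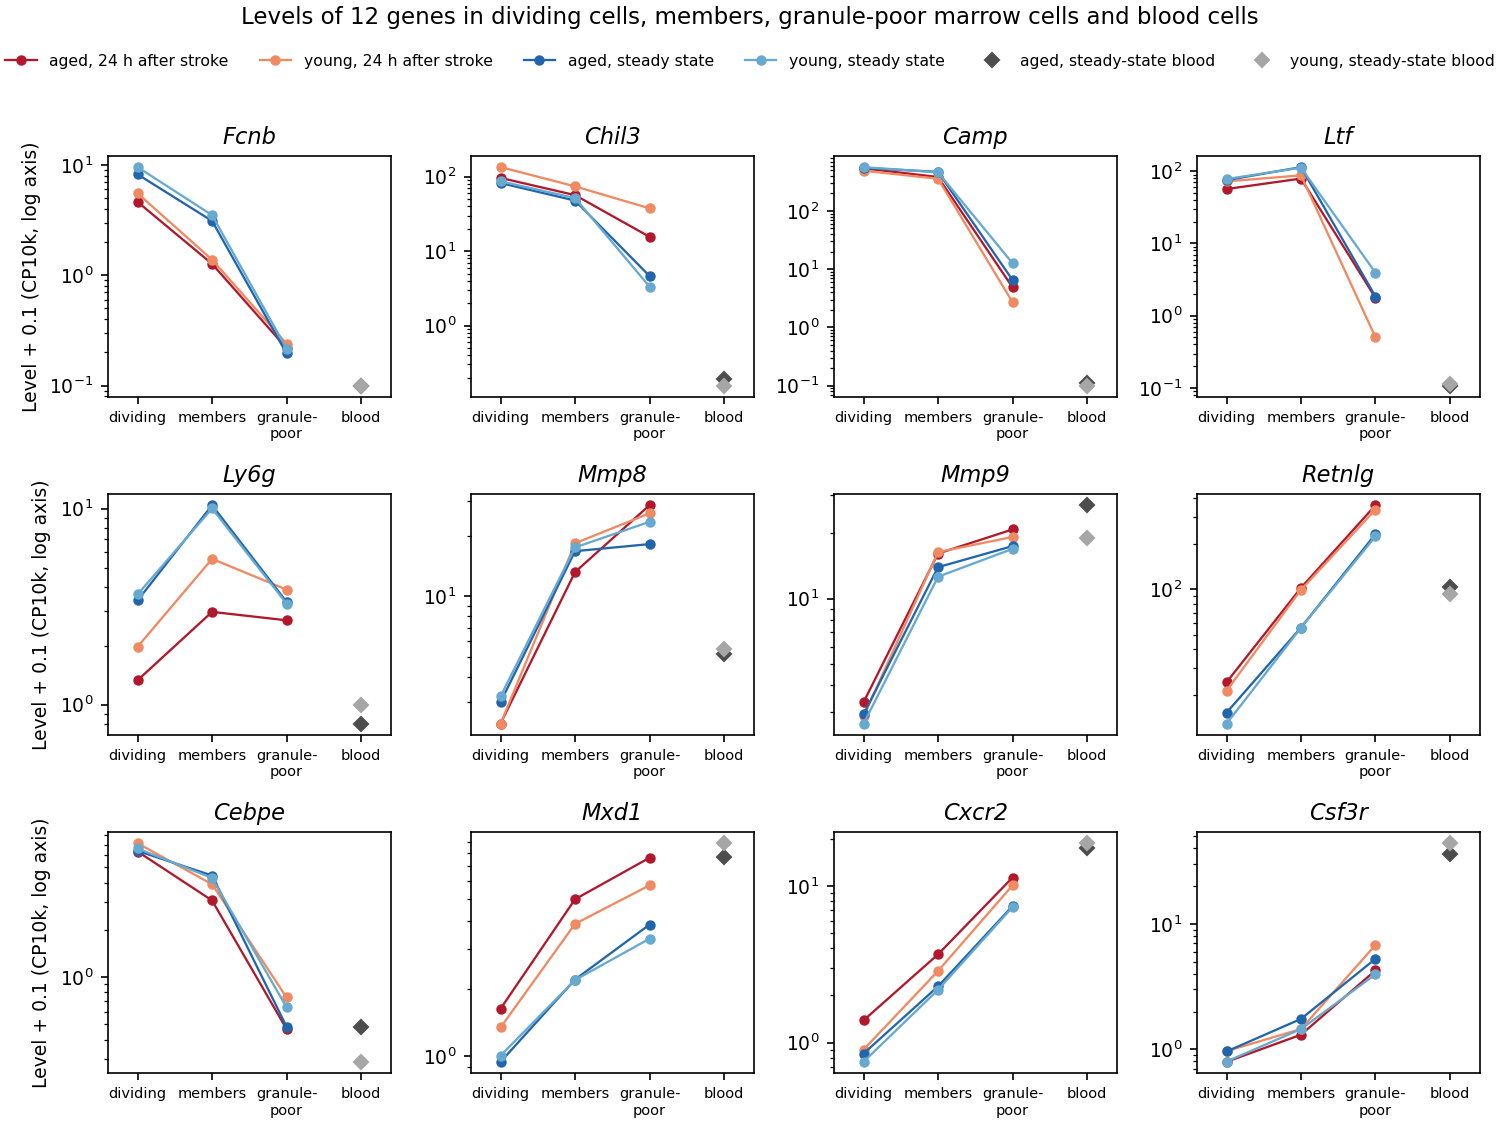
Level plus 0.1 (CP10k, log axis) of 12 genes in dividing granule-rich cells, members, granule-poor S100a8- and S100a9-rich marrow cells and blood cells, 1 point per library. Members hold Camp and Ltf near the level of dividing cells, and Mmp8, Mmp9 and Retnlg above it. Cxcr2 and Csf3r are highest in blood, at 17.3 to 18.6 and 36.0 to 43.7 CP10k.

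Members expressed fewer genes per cell than either neighbour. At 2000 UMIs per cell the median member showed 577.5 and 587 genes in the aged and young stroke libraries and 637 and 641 in the aged and young steady-state libraries. Dividing cells showed 671.5, 695, 743 and 735 genes and granule-poor cells 688, 718, 988 and 987 genes in the same libraries. Without thinning, members showed 1999.5 and 2127 genes in the aged and young stroke libraries and 1515 and 1331.5 in the aged and young steady-state libraries.

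Ranked by the lowest variance over mean among the 4 libraries, the late gene Retnlg varied most among members; single libraries held higher values of other genes, such as 509 for the immunoglobulin gene Igkc in the aged steady-state library. Over cells thinned to 2000 UMIs the variance of Retnlg was 42.8, 37.4, 31.9 and 39.0 times its mean in the aged stroke, young stroke, aged steady-state and young steady-state libraries, and that of Camp 30.6, 33.0, 17.3 and 19.9 times. Counting noise alone gives a value near 1. Olfm4, a granule glycoprotein carried by a subset of neutrophils, had a variance of 7.51 to 9.59 times its mean and was found in 16.5% and 4.02% of the thinned members of the aged and young stroke libraries and in 12.7% and 15.7% of those of the aged and young steady-state libraries.

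This spread had an order. Members were split at 300, 600 and 1000 CP10k of Camp, Ngp and Ltf together, and other genes were scaled to the UMIs without these 3. Of 1714 genes, 79 (4.61%) rose and 43 (2.51%) fell at every step as granule transcripts ran down, in each of the 4 libraries. The bins are cut from genes of the rule, so this is a description.
Retnlg stood at 13 to 19.8 CP10k where granule transcripts were highest, and at 372 and 304 CP10k in the lowest bin of the aged and young stroke libraries and 187 and 189 CP10k in that of the aged and young steady-state libraries. Cxcr2 stood at 8.46 and 7.09 CP10k in the lowest bin of the aged and young stroke libraries and 4.78 and 4.88 in that of the aged and young steady-state libraries, against 1.90, 1.27, 1.5 and 1.14 in the highest bin. Srgn, the granule proteoglycan serglycin, Selplg, the ligand of P-selectin, Fth1, ferritin heavy chain, and the G-CSF receptor Csf3r moved the same way.
Genes of the earlier programme ran down together with Camp, Ngp and Ltf. Fcnb stood at 2.83, 3.12, 5.05 and 6.07 CP10k in the highest bin of the aged stroke, young stroke, aged steady-state and young steady-state libraries, and at 0.016 to 0.11 CP10k in the lowest. Cebpe stood at 5.16, 6.23, 6.16 and 6.09 CP10k in the highest bin, against 0.541, 2.01, 1.59 and 0.891 in the lowest. Chil3, a chitinase-like secreted protein, Orm1, an acute-phase glycoprotein, Lta4h, Lcn2 and Cybb moved with them. Mmp8 and Mmp9 did not move one way at every step in every library.

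**Figure D2:**
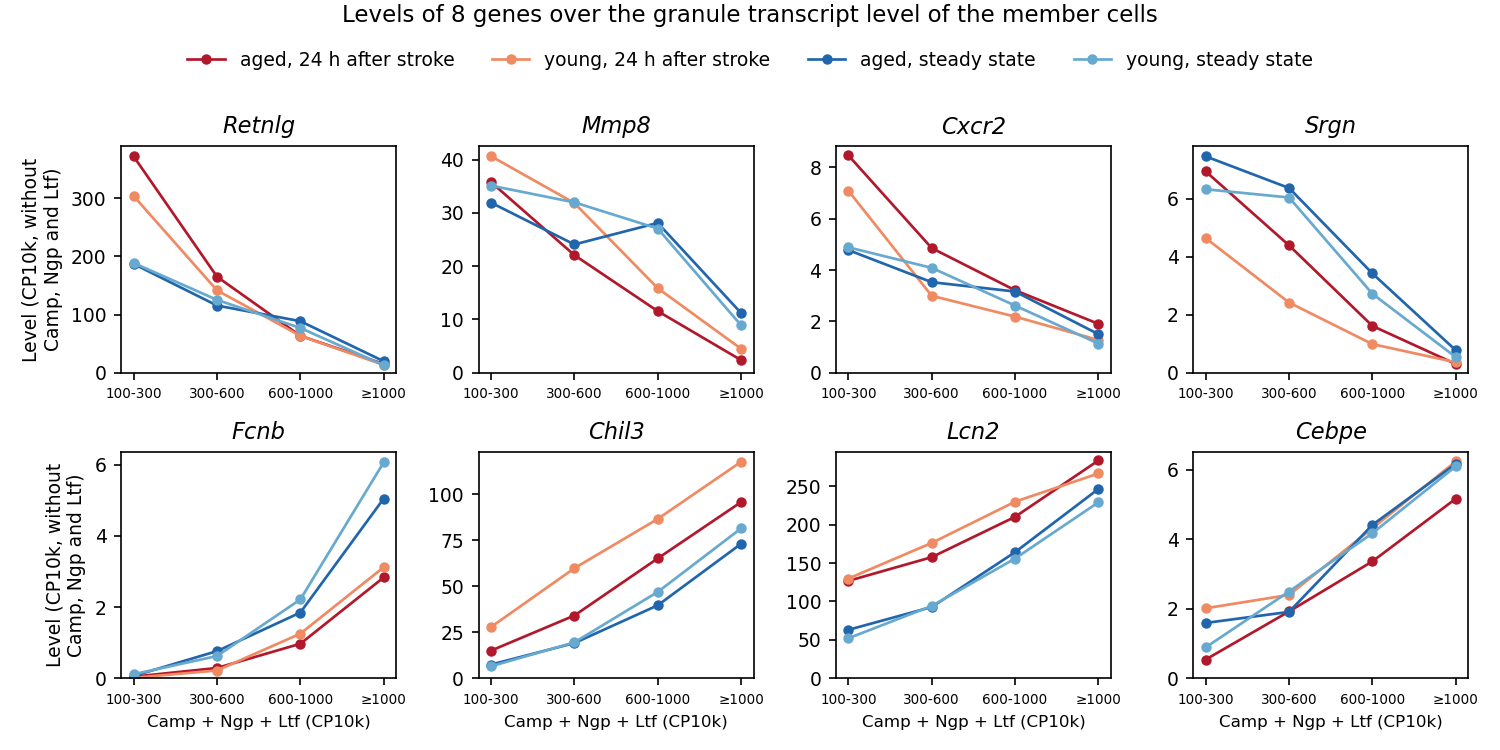
Level (CP10k, scaled without Camp, Ngp and Ltf) of 8 genes in members split by their summed Camp, Ngp and Ltf level, 1 line per library. Retnlg, Cxcr2 and Srgn are highest where granule transcripts are lowest, and Fcnb, Chil3, Lcn2 and Cebpe are highest where they are highest; Mmp8 has a step against its trend in the aged steady-state library.

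The stroke libraries held a larger share of their members at a low CP10k of granule transcripts. Members at 1000 CP10k or more made up 25.6% and 23.1% in the aged and young stroke libraries, against 60.2% and 56.0% in the aged and young steady-state libraries. Members at 100 to 300 CP10k made up 20.2% and 28.9% in the aged and young stroke libraries, against 5.36% and 7.07% in the aged and young steady-state libraries. The stroke groups did not overlap the steady-state groups in either bin, which with so few libraries is a description only. The depth and the cell filters of the libraries also differed, and their part in this was not tested.

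**Figure D3:**
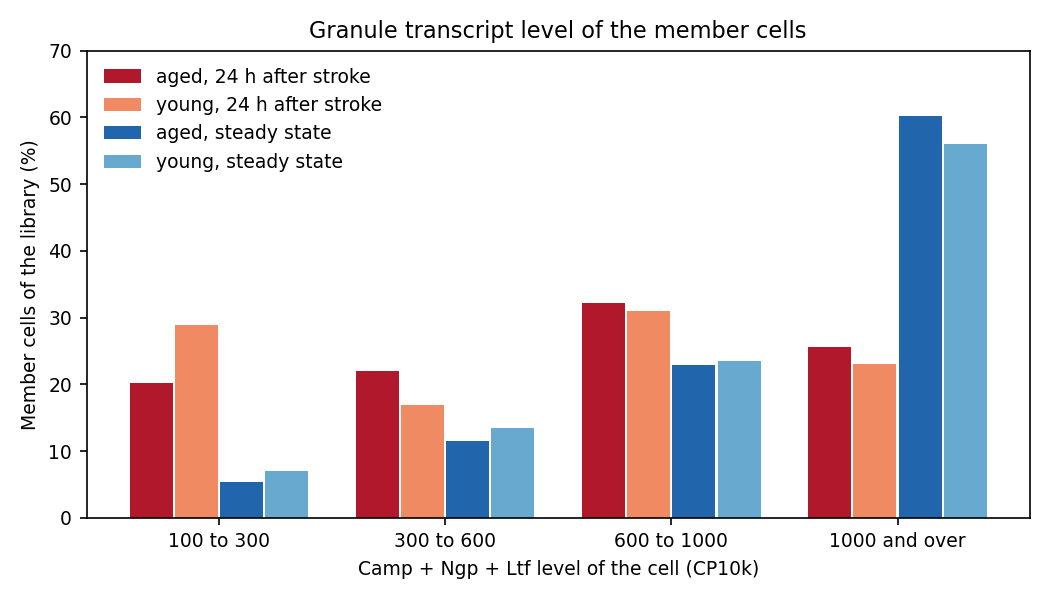
Share of the members of each marrow library (%) in 4 bins of summed Camp, Ngp and Ltf (CP10k), as bars for the aged stroke, young stroke, aged steady-state and young steady-state libraries. The highest bin holds 25.6% and 23.1% of members after stroke, against 60.2% and 56.0% at steady state.

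Summed over members, 1405 genes were higher and 1083 lower 24 h after stroke than at steady state, out of 10145 tested (24.5% in all, 13.8% higher and 10.7% lower; edgeR quasi-likelihood test with context and age as terms, Benjamini-Hochberg adjusted p below 0.05). In azurophil-transcript progenitors of the same libraries 49.9% of 14721 genes passed. The deposited stroke libraries held cells with as few as 212 UMIs, and kept cells with up to 9.95% mitochondrial UMIs, while the steady-state ones stopped at 599 UMIs and 4.99%. Of the genes that share at least 1% of the words of their 3′ end with other genes 23.1% were higher, and of the others 11.1%. A run, preparation or processing difference between stroke and steady-state libraries therefore cannot be told apart from the stroke, and progenitor ratios are given beside the leading genes. Granule sums in cells low in S100a8 and S100a9, given above, were lower in the stroke libraries. Progenitors numbered 533 and 426 in the aged and young stroke libraries and 1869 and 2601 in the aged and young steady-state ones. The median progenitor had 22709 UMIs in the aged and 1213 in the young stroke library. At steady state it had 15038 UMIs in the aged and 11550 in the young library. The part of this depth difference and of free RNA in the progenitor ratios was not tested. Scaling matters too: scaled to total UMIs in place of TMM (trimmed mean of M-values), the median gene moved to -0.45 against -0.02, and 506 genes were higher and 3225 lower.

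Alarmins and secreted proteins were higher most often: 24 of 28 tested passed, all higher, with a median log2 ratio of 0.84 (-0.02 over all genes). In progenitors the median of this list was 0.79, so the rise was not particular to members. Members relative to progenitors gave a median of 0.22, with 8 genes higher and 6 lower. S100a8 rose by 0.87 ± 0.15 (SE; adjusted p = 0.000602) and S100a9 by 0.52 ± 0.15 (adjusted p = 0.0178), which was 0.09 with total-UMI scaling, where it no longer passed. S100a6, another calcium-binding protein, stood at 80.3 and 67.8 CP10k in the aged and young stroke libraries. It stood at 34.1 and 28.1 CP10k in the aged and young steady-state libraries, and rose by 1.69 ± 0.14 (adjusted p = 5.04e-07, edgeR quasi-likelihood test). Lrg1, a leucine-rich glycoprotein of specific granules and plasma, rose by 1.63, Wfdc17, a secreted whey acidic protein-type protein, by 1.91 and Ifitm2, an antiviral membrane protein, by 2.02. In progenitors of the same libraries the log2 ratios were 1.6 for S100a8, 1.25 for S100a6, 2.20 for Lrg1, 2.39 for Wfdc17 and 0.86 for Ifitm2.

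Granule genes split by class. Among specific-granule genes outside the rule 9 of 17 were higher and 1 lower (median 0.39). The rule genes Camp, Ngp and Ltf had log2 ratios of 0.10, 0.15 and -0.01 with TMM and of -0.33, -0.29 and -0.44 with total-UMI scaling, given without a test. Lcn2 rose by 0.67, Chil3 by 0.81, Cd177, a surface protein carried by a subset of neutrophils, by 0.98 and Hp, the haemoglobin scavenger haptoglobin, by 1.17, while Cybb fell by 0.38. Progenitors gave 2.62 for Lcn2, 3.65 for Chil3, -0.01 for Cd177 and 1.75 for Hp. Among gelatinase-granule and secretory-vesicle genes 9 of 13 were higher and 1 lower (median 0.61): Retnlg rose by 1.29 ± 0.13 (adjusted p = 8.17e-06), Slpi, a protease inhibitor, by 1.16, Fpr1 by 1.02 and Mmp9 by 0.73, and Fcnb fell by 0.95. Progenitors gave -2.25 for Retnlg, -2.11 for Fpr1, -2.38 for Mmp9 and 0.17 for Slpi. Among members of 600 to 1000 CP10k alone, compared at like granule levels, 20.4% of 6623 genes passed. There Retnlg was at 0.09, Fpr1 at 0.05 and Mmp9 at 0.29 and none of these passed, while Slpi was at 0.79 and passed (adjusted p = 1.03e-06).
Of the azurophil genes outside the rule 3 of 7 were lower and 2 higher (median -0.26). Ctsg fell by 1.43, which did not pass in DESeq2, and was at 0.02 in progenitors. Mpo and Elane, neutrophil elastase, are capped by the rule, and their log2 ratios of -2.40 and -2.18 are given without a test. Less RNA per cell and fewer cells with the RNA cannot be told apart in these sums.

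Lipg and Asprv1 were among the genes with large rises and without shared 3′ sequence. Lipg encodes endothelial lipase. It had 412 and 148 UMIs in the aged and young stroke libraries, against 4 and 8 in the aged and young steady-state libraries, and was found in 43.4% and 25.3% of members after stroke, against 0.579% and 0.854% at steady state. The log2 ratio was 6.90 (counting interval 5.54 to 8.79) in aged and 5.06 (4.04 to 6.30) in young mice, and 5.91 ± 0.29 together (adjusted p = 2.35e-09, edgeR quasi-likelihood test).
Dividing cells of the same libraries held Lipg as well, at 0.849 and 0.638 CP10k in the aged and young stroke libraries, against 0.0165 and 0.0175 CP10k in the aged and young steady-state libraries. No UMI of it was found in the blood cells compared above, but these all came from untreated mice, so blood after stroke was not seen. Progenitors after stroke held 0.00142 and 0.00597 CP10k.
Asprv1 encodes a retroviral-like aspartic protease (chromosome 6, 86628164 to 86629710, GRCm38). It stood at 1.53 and 1.86 CP10k in the aged and young stroke libraries, against 0.268 and 0.268 CP10k in the aged and young steady-state libraries, and rose by 3.09 ± 0.15 (adjusted p = 2.35e-09), by 2.52 among members of 600 to 1000 CP10k. In progenitors it was at -2.55. Saa3, an acute-phase serum amyloid, had 433 and 128 UMIs in the aged and young stroke libraries, against 0 in both steady-state libraries, where a count of 0 allows up to 0.00606 CP10k in the aged and 0.00624 CP10k in the young library. Its 10 richest cells held 98.6% and 98.4% of these UMIs, so it came from few cells.

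Receptors and regulators moved in part. Of the receptors for retention and release 6 of 18 were higher and 2 lower (median 0.25). Cxcr2 rose by 0.99, Selplg by 1.01 and Il1r2, the decoy receptor of interleukin-1, by 2.08, while Ly6g fell by 0.92 ± 0.18, which did not pass in DESeq2; the Gr1 antibody of the sort recognises this antigen. Ly6g stood at 2.87 and 5.44 CP10k in the aged and young stroke libraries, against 10.3 and 9.91 CP10k in the aged and young steady-state libraries. Progenitors gave -1.11 for Cxcr2, 4.40 for Il1r2 and -2.74 for Ly6g. The chemokine receptor Cxcr4, which holds neutrophils in the marrow, was at 0.35 and did not pass, nor did Csf3r at 0.20; with total-UMI scaling these values were -0.08 and -0.23. Among members of 600 to 1000 CP10k Cxcr2 was at 0.35 and Selplg at 0.37, and neither passed.
Of the granulocyte transcription factors 10 of 25 were higher and 4 lower (median 0.34). Mxd1, a partner of Max that opposes Myc, rose by 1.47 ± 0.14 (adjusted p = 2.66e-06) and was at -0.65 in progenitors. Cebpb, the C/EBP factor of emergency granulopoiesis, rose by 1.32 and Spi1 (PU.1) by 0.85, with 1.61 and 0.75 in progenitors, while Irf8, which favours monocytes and dendritic cells, fell by 2.05 and Myb, of early progenitors, by 1.62. Stem and progenitor markers moved with them, at 0.244 and 0.196 CP10k in the aged and young stroke libraries, against 1.06 and 1.38 CP10k in the aged and young steady-state libraries. The 10 richest members held 40.2 to 81.0% of the Irf8 UMIs of a library, and the part of other cell types in these falls was not tested. Cebpe was at 0.09 and did not pass, and was at -0.34 with total-UMI scaling.

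Enzymes and signalling genes followed in smaller groups. Among lipid-mediator genes 6 of 14 were higher and 1 lower: Alox5ap, the 5-lipoxygenase activating protein of leukotriene synthesis, stood at 22.1 and 19.8 CP10k in the aged and young stroke libraries, against 10.2 and 9.25 CP10k in the aged and young steady-state libraries, and rose by 1.54 ± 0.13 (adjusted p = 9.17e-07), with 0.49 in progenitors. Pla2g7, which breaks down platelet-activating factor, rose by 2.46 but was at 0.62 among members of 600 to 1000 CP10k, where it did not pass. Among glucocorticoid-responsive genes 7 of 13 were higher and none lower (median 0.95): Fkbp5, a chaperone partner of the glucocorticoid receptor, rose by 1.43 and Tsc22d3 (GILZ) by 1.09, at 0.44 and 1.0 in progenitors, and Dusp1, a MAP kinase phosphatase, by 1.76, at 0.40 and not past the threshold among members of 600 to 1000 CP10k. Among G-CSF signalling genes 9 of 20 were higher and none lower, among them the kinase Lyn (1.12) and the NF-kB cofactor Bcl3 (2.20).
Interferon-stimulated genes were lower in 10 of 31 and higher in 2 (median -0.44), with Ifi27l2a falling by 0.97 and Bst2 (tetherin) by 1.49. In progenitors the median of this list was -0.79, and members relative to progenitors gave a median of 0.22. Class I presentation genes were lower in 6 of 15 and higher in 4, with B2m, the shared light chain, falling by 0.62. Glycolytic genes were higher in 12 of 21 and oxidative phosphorylation genes in 19 of 30, none lower, with medians of 0.46 and 0.47 that were 0.82 and 0.54 in progenitors. Of the 10 glycolytic and 13 oxidative phosphorylation genes without shared 3′ sequence, 4 and 9 were higher.
The remaining lists gave these counts, where 13.8% of all tested genes were higher and 10.7% lower. A count near these shares is no result about its list. Ribosomal protein genes were higher in 9 of 37 and lower in 12, with a median of -0.15 that was 0.48 in progenitors. Only 1 of these ribosomal genes was without shared 3′ sequence, and it was lower. Actin and motility genes were higher in 8 of 20, and NADPH oxidase genes higher in 4 of 10 and lower in 1. Immediate early genes were higher in 8 of 18 and lower in 1. Inflammatory and NF-kB genes were higher in 5 of 19 and lower in 3, iron and heme genes higher in 7 of 12 and lower in 2, and survival and death genes higher in 2 of 15 and lower in 1. Cell cycle exit genes were higher in 2 of 9, and mitosis and replication genes outside the rule higher in 4 of 19 and lower in 5. With total-UMI scaling 10 list medians, those of specific granules, receptors, transcription factors, cell cycle exit, NADPH oxidase, actin, lipid mediators, survival, inflammatory and G-CSF genes, turned negative.

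**Figure D4:**
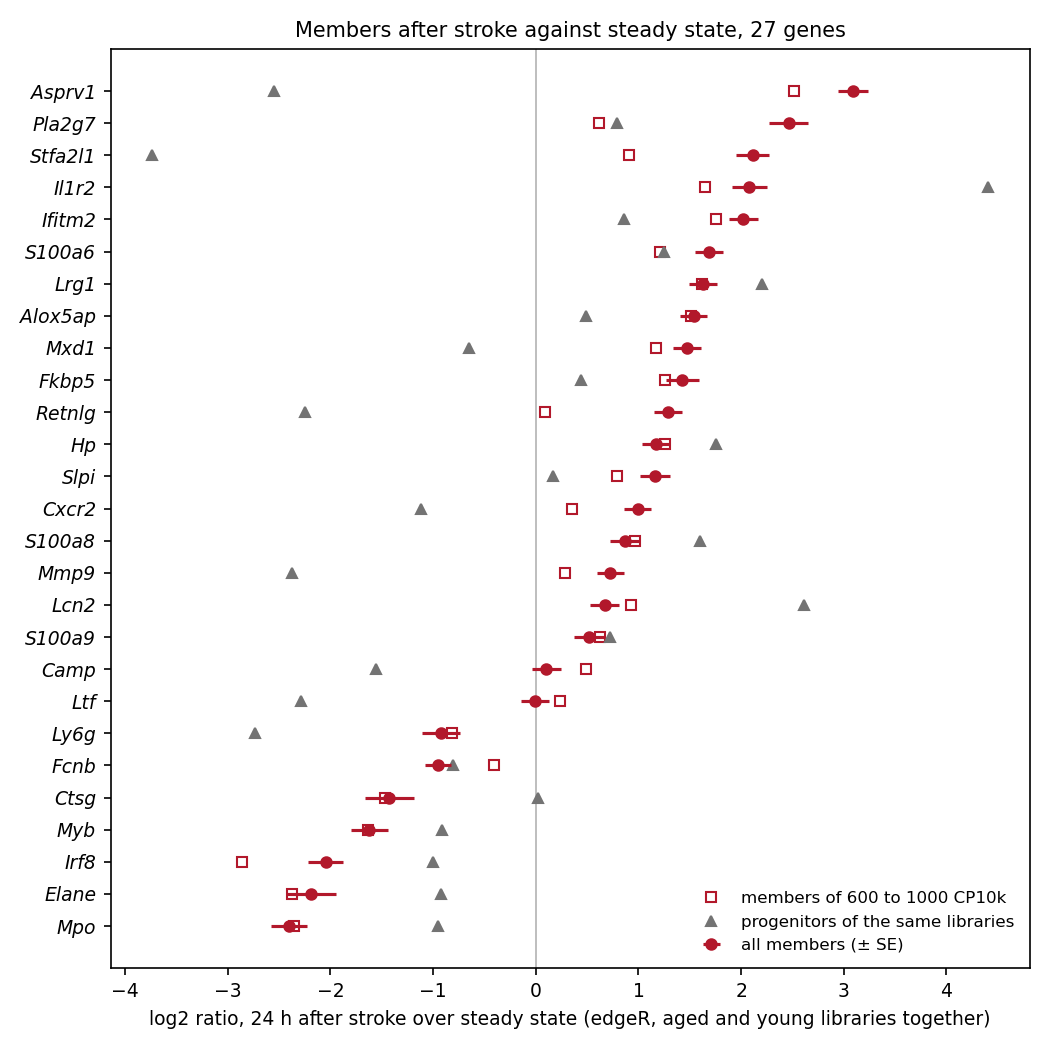
Log2 ratio of 27 genes, 24 h after stroke over steady state: all members (filled circles, bars ± SE), members of 600 to 1000 CP10k (open squares) and progenitors of the same libraries (triangles). Asprv1 is at 3.09 in members and -2.55 in progenitors; Retnlg is at 1.29 in all members and 0.09 in members of like granule level.

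The same comparison held transcripts of other cells and of shared sequence. Jchain of plasma cells fell by 6.54, Pf4 of megakaryocytes by 4.91 and Mcpt8 of basophils by 3.97, and the basophil and megakaryocyte marker sums given above were lower in the stroke libraries as well. Within the steady-state libraries the 10 richest members held 96.4% of the Jchain UMIs in the aged and 98.9% in the young library. At the other end Gm10736, a gene whose 3′ end is wholly shared with other genes, was at 5.2 and Ftl1, ferritin light chain, with 73.9% of its 3′ words shared, at 3.89, and progenitors gave 5.79 and 4.29.

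Few genes were called for age in these cells, in a fit without replicates and with 1 residual degree of freedom. The counts depended on the setting, as given at the end. Of 10145 genes, 2 were higher (0.0197%) and 6 lower (0.0591%) in aged than in young mice across both contexts (0.0789% in all; edgeR quasi-likelihood test), and 386 had an unadjusted p below 0.05. DESeq2 called 1 gene, lower, and none higher, with 48 at an unadjusted p below 0.05. The main granule and calprotectin genes, of which Camp, Ngp and Ltf belong to the rule and are given without a test, were close to equal: the log2 ratio was 0.08 ± 0.14 for Camp, 0.01 ± 0.14 for Ngp, -0.04 ± 0.14 for Ltf, 0.04 ± 0.15 for S100a8 and 0.01 ± 0.15 for S100a9. Retnlg was at 0.04 ± 0.13.

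Both genes that were higher in aged mice encode small secreted or cytosolic proteins of myeloid cells. Wfdc17 stood at 2.5 CP10k in the aged and 1.39 in the young stroke library, and at 0.851 in the aged and 0.529 in the young steady-state library. It rose by 0.79 ± 0.13 (adjusted p = 0.0421), by 0.86 (counting interval 0.71 to 1.01) after stroke and 0.71 (0.48 to 0.94) at steady state, and was found in 37.3% of aged and 26.4% of young members after stroke and in 12.6% of aged and 9.27% of young members at steady state. The 10 richest members held 47.4% and 60.4% of its UMIs in the aged and young stroke libraries. They held 38.2% and 38.4% in the aged and young steady-state libraries. Granule-poor marrow cells, which also carry monocyte transcripts, had a mean of 16.4 CP10k of Wfdc17, against 1.32 in members. The part of such cells in this call was not tested. Stfa2, a cystatin-type protease inhibitor, stood at 0.558 CP10k in the aged and 0.193 in the young stroke library, and at 0.123 in the aged and 0.0768 in the young steady-state library, and rose by 1.24 ± 0.21 (adjusted p = 0.0421). It came from few cells: the 10 richest held 78.8% of its UMIs in the aged stroke library and all of them in the other 3. Of its 3′ words 19.1% are shared with other genes. Each of these calls was made in 7 of 14 other settings, in 1 of which Stfa2 was not tested.

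Of the 6 genes that were lower in aged mice, 4 are known from B-lineage or lymphoid progenitor cells: Ly6d, Dntt, Iglc3 and Igha. Ly6d, of early B-lineage and plasmacytoid dendritic cells, stood at 0.0645 CP10k in the aged and 0.226 in the young stroke library, and at 0.260 in the aged and 1.13 in the young steady-state library. It fell by 1.99 ± 0.17 (adjusted p = 6.48e-05) and passed in all 14 other settings, but the 10 richest members held 63.6 to 100% of its UMIs in the 4 libraries. B-lineage markers moved with it, as given above, at 0.408 CP10k in the aged and 0.524 in the young stroke library and 0.607 in the aged and 0.936 in the young steady-state library, and their part in the result was not tested. Bst2, which is interferon-induced and also a plasmacytoid dendritic marker, fell by 1.31, Dntt, the terminal transferase of lymphoid progenitors, by 2.91 and Cox6a2, a subunit of cytochrome c oxidase, by 2.57. The 10 richest members held 43.3 to 72.6% of the Bst2 UMIs and 71.2 to 100% of the Cox6a2 UMIs of a library. Siglech, a marker of plasmacytoid dendritic cells, moved with them, with 3 UMIs in the aged and 31 in the young stroke library and 29 in the aged and 88 in the young steady-state library, and its part was not tested. The immunoglobulin genes Iglc3 and Igha fell by 4.78 and 4.80, with 99.0% and 100% of their UMIs in the 10 richest members of the young steady-state library, and Igha pointed up in the pair after stroke (0.71, counting interval -0.46 to 2.00).

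Several other genes pointed the same way in both pairs without passing in the main fit. Among the 14 other settings Mrgpra2b was called in 8, Ifitm2 in 6, Stfa1 and Ldhc in 5 each and Ifi27l2a in 4. Wfdc17 and Stfa2 were called in 7 each, so the settings do not set these 2 apart. Mrgpra2b, Ifitm2 and Stfa1 were not tested in all of the settings. Ifitm2 stood at 17.3 CP10k in the aged and 10.0 in the young stroke library, and at 5.09 in the aged and 3.77 in the young steady-state library, a log2 ratio of 0.63 ± 0.14 (adjusted p = 0.167, edgeR quasi-likelihood test), with 25.4% of its 3′ words shared. Mrgpra2b, a receptor of the Mrgpr family, was at 0.75 ± 0.14 (adjusted p = 0.0757), with 71.6% of its 3′ words shared, and Stfa1, a cystatin like Stfa2 with 29.6% of its 3′ words shared, at 0.67, with 78.8 to 99.0% of its UMIs in the 10 richest members of a library. Ldhc, a lactate dehydrogenase known from testis, was at 2.41 (counting interval 2.00 to 2.85) after stroke and 0.43 (0.04 to 0.82) at steady state. Ifi27l2a, an interferon-induced gene, was at -0.74 ± 0.18 (adjusted p = 0.282, edgeR quasi-likelihood test). It was found in 9.86 to 16.3% of the members of a library, and the 10 richest held 36.2 to 65.5% of its UMIs.
Olfm4 differed between the pairs. It stood at 5.85 CP10k in the aged and 1.07 in the young stroke library, a log2 ratio of 2.47 (counting interval 2.31 to 2.62), and at 3.92 in the aged and 4.39 in the young steady-state library, a ratio of -0.14 (-0.23 to -0.05). In the young stroke library it was found in 3.61% of members, and 10 cells held all its UMIs.

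By list, the 2 calls among alarmins and secreted proteins were Wfdc17 and Stfa2 (2 of 28), and the call among interferon-stimulated genes was Bst2 (1 of 31, lower). The interferon list had a median of -0.38, with 2 of 31 values above 0, against a median of 0.02 over all genes. It was -0.12 among members of 600 to 1000 CP10k and -0.29 in progenitors. None of the 340 genes tested in the other 20 lists passed, and 33 of them had an unadjusted p below 0.05; DESeq2 added no gene, as its 1 call was Ly6d.

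**Figure D5:**
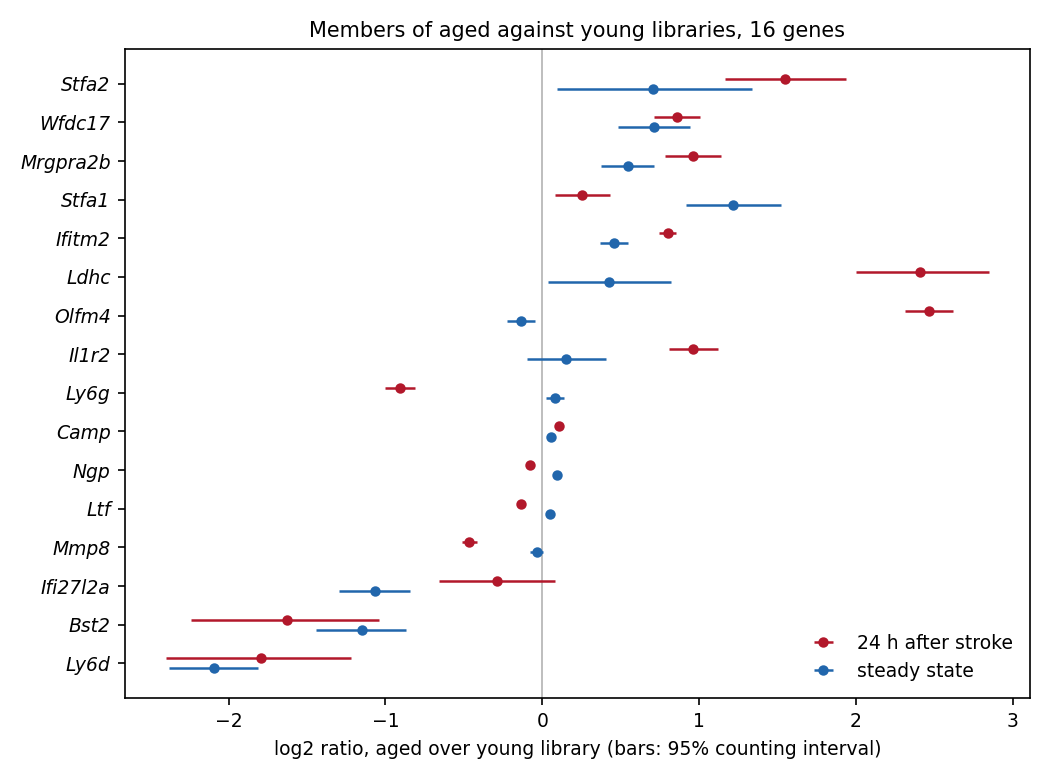
Log2 ratio of 16 genes, aged over young, in members after stroke (red) and at steady state (blue), with 95% counting intervals as bars. Wfdc17, Stfa2 and Ifitm2 lie above 0 and Bst2 and Ly6d below 0 in both pairs, and Olfm4 is at 2.47 after stroke and -0.14 at steady state.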

How the data were processed

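Per the file headers and its whole-number values, the deposited table held raw UMI counts of 23016 genes in 28055 cells of 6 libraries; per the submitters' processing notes the authors used Cell Ranger 3.0.2, UMI-tools, STAR 2.5.3a and featureCounts 1.6.4 (Subread) with GRCm38/mm10. Counts were used as deposited. Members were chosen by the stated rule, with no doublet removal; members and gene lists were chosen with earlier results of these data known. UMIs of members were summed per library (3626447 to 5732384) and tested with edgeR 4.0.16 (R 4.3.3; limma 3.58.1) as quasi-likelihood fits with context and age, TMM scaling and filterByExpr, with 1 residual degree of freedom, over 10145 genes; DESeq2 1.42.0 was an alternative. Ratios within a pair of libraries carry exact 95% counting intervals, which cover counting error only. Other values were computed with scipy 1.17.1 and pandas 2.3.3 in Python 3.11.15, and figures drawn with matplotlib 3.10.9. The fit was tested on simulated data. The granule-poor comparator, the progenitor contrast, the 600 to 1000 CP10k members, the shared 3′ sequence and the total-UMI scaling were chosen after seeing the data. Genes were named as rule and marker genes, as the 20 most abundant, as up to 15 per direction past the threshold with the largest ratios at 20 CPM or more and the same sign in both pairs, as the most abundant, passing or largest members of each list, as up to 15 per direction at 50 CPM or more in a stage comparison, and as the 12 most variable. Saa3, Bcl3, Ceacam10, Cox6a2, Dntt, Igha, Lrg1 and Stfa1 lay outside these and were picked after their values were seen. Promoters came from RefSeq (GRCm38.p6), where all 3 genes shown matched by symbol.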

Additional observations from a re-analysis of the deposited data

Results flagged for a closer look

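The age ratio pointed in opposite directions after stroke and at steady state, with neither counting interval reaching 0, for 7 genes named or tracked here; with 1 library per group these differences were not tested. The log2 ratio of aged over young was 2.47 after stroke and -0.14 at steady state for Olfm4, a difference of 2.60. It was 1.24 and -0.27 (difference 1.51) for Elane, which the rule caps and which had 37 UMIs in the young stroke library. It was 1.01 and -0.45 for Ctsg (difference 1.46) and 0.45 and -0.17 for Hmgn2, a nucleosome-binding protein (0.62). It was -0.91 and 0.08 for Ly6g (difference -0.99), -0.30 and 0.26 for Slpi (-0.56) and -0.27 and 0.23 for Ceacam10, a cell adhesion gene (-0.50). For Olfm4 the stroke ratio was 1.0 in aged and -1.60 in young mice, the same difference of 2.60.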

How the results depend on the processing

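The counts of genes by age, 2 higher and 6 lower, depended on nearly every choice. They were 0 higher and 1 lower in DESeq2, with no filter on low counts, with at least 2000 UMIs per cell, without shared 3′ sequence and with total-UMI scaling. They were 25 and 12 at a granule floor of 50 CP10k, 4 and 2 at 200, 36 and 14 with no UMI of the cycle genes, 32 and 22 without the top 5% of cells by UMIs and 4 and 3 thinned to 2000 UMIs; higher calls were 22 without members holding other-lineage UMIs and 21 among members of 600 to 1000 CP10k. Igha turned sign for age at the 200 floor (0.0192), without other-lineage cells (1.48), without the top 5% (0.34) and in one pair (-6.66 to 0.71 over the 2 pairs alone), and for stroke in the same 3 settings (0.21, 1.23, 0.32) and in one pair (-6.54 to 0.83). Stroke calls, 1405 higher and 1083 lower, were 473 and 154 in DESeq2, 572 and 388 thinned, 824 and 594 without shared sequence, 506 and 3225 with total-UMI scaling and 728 and 625 among members of 600 to 1000 CP10k, with 672 lower without the filter. In the last members Stfa1 was at -0.41 and Stfa2 at -0.40 for stroke. The share of members was 14.2%, 12.5% and 17.9% in the aged stroke library at the 200 floor, with no cycle UMI and with 2000 UMIs, and 10.0%, 9.98% and 14.0% (13.8% thinned) in the young stroke library; with no cycle UMI it was 7.79% in the aged and 7.35% in the young steady-state library. Fewer genes or cells enter several of these settings; otherwise the cause was not tested. Of 65 genes called for stroke and followed in all settings, 24 lost the call and 3 turned sign in some setting; of 8 called for age, 7 lost it. No paired analysis was possible because each group has 1 library and the labels carry no replicate numbers.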
